A study of Rattus norvegicus with 6 samples.

Results

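Mature oligodendrocytes, the glial cells that wrap axons in myelin, made up 10531 of the 61609 nuclei that passed quality filters in a single-nucleus RNA sequencing study of the rat nucleus accumbens. A nucleus was counted as one when it held at least 2 UMIs (unique molecular identifiers, the tags by which captured RNA molecules are counted) of Mog, Opalin, Mag and Ermn together and at least 3 of Mbp. It was further required to hold at most 1 UMI of the GABAergic neuron genes Gad1 and Gad2, and none of Aqp4 (astrocytes), Pdgfra (oligodendrocyte precursors) or Csf1r (microglia). Nuclei were kept with 500 or more detected genes and a mitochondrial share of UMIs up to 5%. The nuclei were chosen by the UMIs of these 10 genes, whose levels are therefore given as a description only. The files hold 64260 barcodes and the labels speak of 44592 nuclei, and which nuclei the authors selected was not used here.

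Oligodendrocytes develop from dividing precursor cells through a newly formed, premyelinating stage, and mature cells then spread sheets of membrane around axons. Their myelin is rich in cholesterol and galactolipids and is held together by a small set of abundant proteins, among them Mbp. The cells carry the glucocorticoid receptor, a hormone-activated transcription factor that is kept ready for its ligand by the HSP90 chaperone machinery, the same machinery that cells induce through heat shock factor when proteins misfold.

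The tissue came from adult Sprague-Dawley rats aged 90 to 120 days, all of which had self-administered heroin. They worked for 7 days on a fixed-ratio 1 schedule and 4 days on a fixed-ratio 3 schedule, took a progressive ratio test on day 12 and returned to the fixed-ratio 3 schedule on days 13 and 14. After the last session they received an injection of saline (libraries 1, 2 and 3) or of the opioid receptor antagonist naloxone (libraries 4, 5 and 6) and were killed 1 h later. Punches of 12 rats, 6 male and 6 female, were combined into the 6 libraries, each of which pools both sexes, and no batch is named in the labels. Both groups share the heroin history, rats without heroin were not analysed here, and the comparison is between naloxone and saline on top of it. Which rats went into which library is not given in the sources used here, so p-values measure the spread between pooled libraries.

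The saline libraries gave 1224, 2045 and 2056 mature oligodendrocyte nuclei and the naloxone libraries 2312, 1530 and 1364. Summed over these nuclei, a library held between 2617180 and 5063800 UMIs, and the median nucleus held between 1462 and 2217.5 UMIs. The median mitochondrial share of the nuclei was 1.34% in naloxone replicate 5, 0.760% in saline replicate 2 and 0.331% to 0.360% in the other 4 libraries. Those 2 libraries also carried the most UMIs of neuron markers in these nuclei. The summed level of 7 neuron markers was 974, 1668 and 726 CPM (a gene's UMIs over all UMIs of the same nuclei, brought to a common total) in the saline libraries and 917, 1373 and 949.9 CPM in the naloxone libraries. The 7 astrocyte markers summed to 612, 988 and 479 CPM after saline and 747, 1049 and 988 CPM after naloxone, with Aqp4 at 0 by the rule. Any 2 libraries shared at most 45 barcodes of all nuclei and at most 3 of these nuclei, and replicate pairs differed by more than counting noise (chi-square per degree of freedom 2.62 to 11.0), so each library was kept as 1 replicate.

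Genes that the rule did not use also set these nuclei apart from 3 other classes drawn from the same libraries by their own marker rules, 1499 oligodendrocyte precursors, 3303 astrocytes and 16108 spiny neurons. Mobp, a structural protein of compact myelin, stood at 1390.4 ± 191 CPM in mature oligodendrocytes (SD, n = 6 libraries), 40.3 ± 17.9 CPM in precursors, 53.4 ± 12.9 CPM in astrocytes and 15.1 ± 6.12 CPM in spiny neurons. Myrf, the transcription factor that switches on myelin genes, stood at 188 ± 21.4 CPM, and at 15.7 ± 3.56, 2.42 ± 1.95 and 3.04 ± 0.583 CPM in those classes. In both genes the lowest library of mature oligodendrocytes lay above the highest library of every other class. The rules of those 3 classes allowed no UMI of Mog, Opalin, Mag or Ermn. Low levels of other myelin genes there therefore follow in part from how the classes were drawn. Sox10, the lineage transcription factor, was shared with precursors, at 229.9 ± 25.1 CPM in mature oligodendrocytes and 203 ± 12.4 CPM in precursors, against 4.72 ± 3.03 CPM in astrocytes. Bcas1, which marks the newly formed stage, was also at a like level in both, 1967 ± 192 and 1994 ± 95.1 CPM, while Enpp6, a choline-producing phosphodiesterase of that stage, stood at 106 ± 16.5 CPM in mature oligodendrocytes and 0.909 ± 0.921 CPM in precursors. The plot of marker lists by class shows the summed lists, and the label of the class held for these sums. Clusters led by genes of other cell types, described below, held 6.52% of the nuclei.

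**Figure D1:**
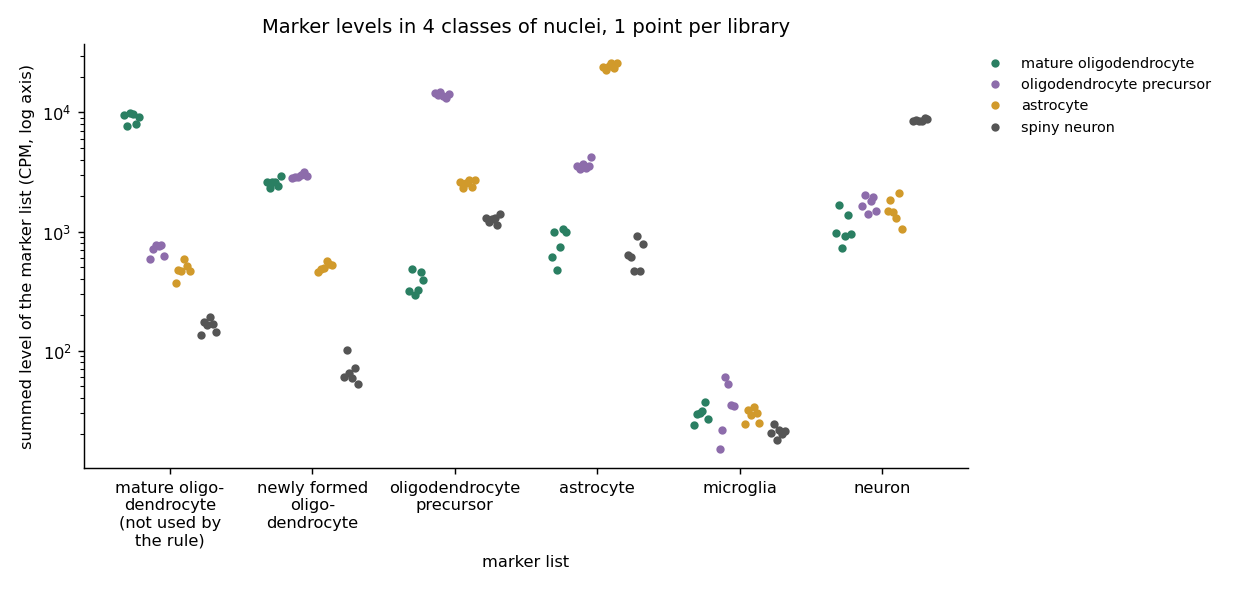
Summed level of 6 marker lists (CPM, log axis) in mature oligodendrocytes, oligodendrocyte precursors, astrocytes and spiny neurons, with 1 point for each of the 6 libraries. The 12 mature oligodendrocyte markers that the rule did not use lie between 7708 and 9850.1 CPM in mature oligodendrocytes and at or below 777 CPM in the other 3 classes. Nuclei of those classes held no UMI of Mog, Opalin, Mag or Ermn by their rules.

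At the edge of the rule the nuclei were less pure. The 1008 nuclei just inside the marker threshold (marker sum of 2) had 1022 CPM of Mobp and 1099.7 CPM of the neuronal gene Syt1. The 714 nuclei just outside it (marker sum of 1) had 679 CPM of Mobp and 1817 CPM of Syt1, and the 5873 nuclei with a marker sum of at least 6 had 1537 and 396 CPM.

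Mature oligodendrocytes took the same share of nuclei in both groups within the spread of the libraries. They were 15.5%, 14.1% and 22.1% of kept nuclei in the saline libraries and 21.6%, 14.0% and 16.6% in the naloxone libraries. The means were 17.2 ± 4.29% after saline and 17.4 ± 3.87% after naloxone (SD over n = 3 libraries per group), and the difference was 0.139 percentage points (exact two-sided permutation test, p = 1, with 0.1 the smallest p that 3 libraries against 3 can give). The groups overlapped, and the sign of this difference turned when saline replicate 1, saline replicate 2 or naloxone replicate 4 was left out.

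One hour after naloxone, mature oligodendrocytes carried more RNA of genes known as glucocorticoid targets, and less RNA of HSP90 and HSP70 cochaperones. Of 11910 genes tested, 30 differed (0.252% of those tested; edgeR's quasi-likelihood test on summed counts, Benjamini-Hochberg adjusted p under 0.05). Of these, 25 were higher after naloxone (0.21%) and 5 were lower (0.042%), and 991 genes had an unadjusted p under 0.05. All 30 had libraries that did not overlap between groups, as did 8.25% of tested genes in the higher and 7.59% in the lower direction. The highest value of 20 of the 25 higher genes was in naloxone replicate 5, the library with the highest mitochondrial share, whose part in the result was not tested beyond leaving it out. Each of the 30 genes kept its direction whichever library was left out, which largely follows from groups that do not overlap. The calls themselves were fragile. Without saline replicate 1 none was called (adjusted p 0.0829 to 0.309), without saline replicate 3 there was 1 call and without naloxone replicate 6 there were 5. Leaving out saline replicate 2, naloxone replicate 4 or naloxone replicate 5 gave 18, 16 and 18 calls, of which 15, 12 and 17 were among the 30.

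A neuron-gene-led cluster of 509 nuclei, an astrocyte-gene-led cluster of 170 nuclei and a mural-gene-led cluster of 8 nuclei together held 687 nuclei (6.52%). Without them the neuron marker sum fell to between 314 and 548 CPM, and the same fit called 99 of 11163 genes (0.887%), 77 higher and 22 lower, with all 30 of the first fit among them. This setting was chosen after the clusters had been seen.

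The glucocorticoid target list was the group with the most higher genes. Of its 21 tested genes, 6 rose and none fell, the libraries of 12 did not overlap in the higher direction, and the median log2 change was 0.93. Over all genes tested 0.21% rose, 8.25% had libraries that did not overlap in that direction, and the median was -0.01. The list was chosen with results of these libraries known, so it is no independent evidence of direction. Fkbp5, a cochaperone that lowers the glucocorticoid receptor's affinity for its hormone, stood at 45.5, 42.3 and 41.9 CPM after saline and at 115, 275 and 123 CPM after naloxone. The saline libraries lay close together, the groups did not overlap, and naloxone replicate 5 was far above the other naloxone libraries. Its log2 change was 1.95 (SE 0.29, edgeR adjusted p = 0.0420).

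Sgk1, the serum- and glucocorticoid-regulated kinase, stood at 92.5, 85.8 and 67.1 CPM after saline and at 147, 244 and 227 CPM after naloxone (log2 change 1.32, SE 0.19, edgeR adjusted p = 0.0419). Ddit4, an inhibitor of the growth kinase complex mTORC1, rose from 21.8 ± 4.46 to 70.9 ± 22.1 CPM (SD, n = 3 libraries each; log2 change 1.68, SE 0.22, edgeR adjusted p = 0.0303). Errfi1, a feedback inhibitor of the epidermal growth factor receptor, had saline libraries between 67.2 and 72.1 CPM and naloxone libraries at 163, 286 and 149 CPM (log2 change 1.48, SE 0.21, edgeR adjusted p = 0.0402). For each of these 3 genes every naloxone library lay above every saline library.

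Klf9, a zinc-finger transcription factor, rose from 74.9, 67.4 and 65.4 CPM to 120.4, 149 and 129 CPM (log2 change 0.93, SE 0.11, edgeR adjusted p = 0.0219). Cdkn1a, an inhibitor of cyclin-dependent kinases, was near the floor in the saline libraries, at 0.764, 3.96 and 2.17 CPM, and stood at 12.3, 12.1 and 16.3 CPM after naloxone (log2 change 2.47, SE 0.38, edgeR adjusted p = 0.0422). The groups did not overlap, and the saline libraries rest on few UMIs. For these 6 targets the adjusted p was between 0.121 and 0.273 without saline replicate 1, between 0.114 and 0.158 without saline replicate 3 and between 0.0618 and 0.158 without naloxone replicate 6.

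Other genes of the list lay in the same direction without passing the threshold. Tsc22d3, which encodes the leucine zipper protein GILZ, stood at 307, 291 and 329 CPM after saline and at 473, 463 and 467 CPM after naloxone (log2 change 0.58, SE 0.10, edgeR adjusted p = 0.0695). Its 6 libraries formed 2 tight groups that did not overlap. Pdk4, a brake on pyruvate oxidation, stood at 39.9 ± 15.4 and 95.8 ± 12.4 CPM (log2 change 1.28, adjusted p = 0.0904), and Zbtb16, a zinc-finger transcription factor, at 281 ± 58.6 and 708 ± 339 CPM (log2 change 1.31, adjusted p = 0.145; SD, n = 3 libraries per group, edgeR). With the clusters led by genes of other cell types removed, 10 of 19 tested list genes were higher (0.69% of all genes tested), which added Tsc22d3 (adjusted p = 0.00710), Pdk4, Zbtb16 and Arrdc2. Per1, a clock gene that glucocorticoids induce in many tissues, stood at 10.1 ± 0.844 and 10.5 ± 0.233 CPM (log2 change 0.05, adjusted p = 0.972). The receptor genes did not pass the test. Nr3c1, the glucocorticoid receptor, stood at 540.2 ± 34.0 and 468 ± 50.1 CPM (log2 change -0.22, 95% interval -0.50 to 0.07), and Nr3c2, the mineralocorticoid receptor, at 168 ± 16.8 and 171 ± 16.7 CPM (0.02, -0.24 to 0.29).

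The remaining named genes that rose were not on the glucocorticoid target list used here. Absence from that list does not show that a gene is no such target. Gpd1, the cytosolic glycerol-3-phosphate dehydrogenase that links glycolysis to glycerolipid synthesis, stood at 154, 127 and 139 CPM after saline and at 416, 769.6 and 394 CPM after naloxone (log2 change 1.89, SE 0.23, edgeR adjusted p = 0.0219). Nfil3, a leucine-zipper transcription factor, stood at 12.0 ± 2.92 CPM after saline and 51.2 ± 13.0 CPM after naloxone (log2 change 2.09, SE 0.23, adjusted p = 0.0189; SD, n = 3 libraries each). Rab31, a small GTPase of vesicle traffic, had its 3 saline libraries between 162 and 192 CPM and its naloxone libraries at 363, 752 and 457 CPM (log2 change 1.56, SE 0.22, adjusted p = 0.0419). In all 3 genes naloxone replicate 5 was the highest library. Gpd1 lost its call without saline replicate 1 or 3 (adjusted p = 0.145 and 0.0919), Nfil3 also without naloxone replicate 6 (0.0710 to 0.120), and Rab31 without any 1 of the saline libraries or naloxone replicate 6 (0.0752 to 0.278).

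Rcan2, a regulator of the phosphatase calcineurin, stood at 454, 517 and 555 CPM after saline and at 1173, 1414 and 1332 CPM after naloxone. Every naloxone library was far above the highest saline library, and the log2 change was 1.35 (SE 0.12, edgeR adjusted p = 0.00891). Rcan2 kept its call in 5 of 6 fits that left out 1 library and lost it without saline replicate 1 (adjusted p = 0.0829). Tnfrsf11a, the receptor known as RANK, had nearly equal saline libraries at 129, 128 and 128 CPM and stood at 285, 400.3 and 299.8 CPM after naloxone (log2 change 1.34, SE 0.13, adjusted p = 0.00891). Phactr3, a regulator of protein phosphatase and actin, rose by 1.24 (SE 0.16, adjusted p = 0.0303) and Tekt5l1 by 1.67 (SE 0.24, adjusted p = 0.0419) on the log2 scale. Another 12 genes rose by 0.58 to 1.01, among them Bcat1, a branched-chain amino acid transaminase (202 ± 21.6 to 412 ± 77.5 CPM), Nt5e, the ectonucleotidase that makes extracellular adenosine (267 ± 7.92 to 508 ± 122 CPM), and Azin1, an antizyme inhibitor (115 ± 6.84 to 213 ± 10.5 CPM). These 3 were chosen for mention after their values had been seen.

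**Figure D2:**
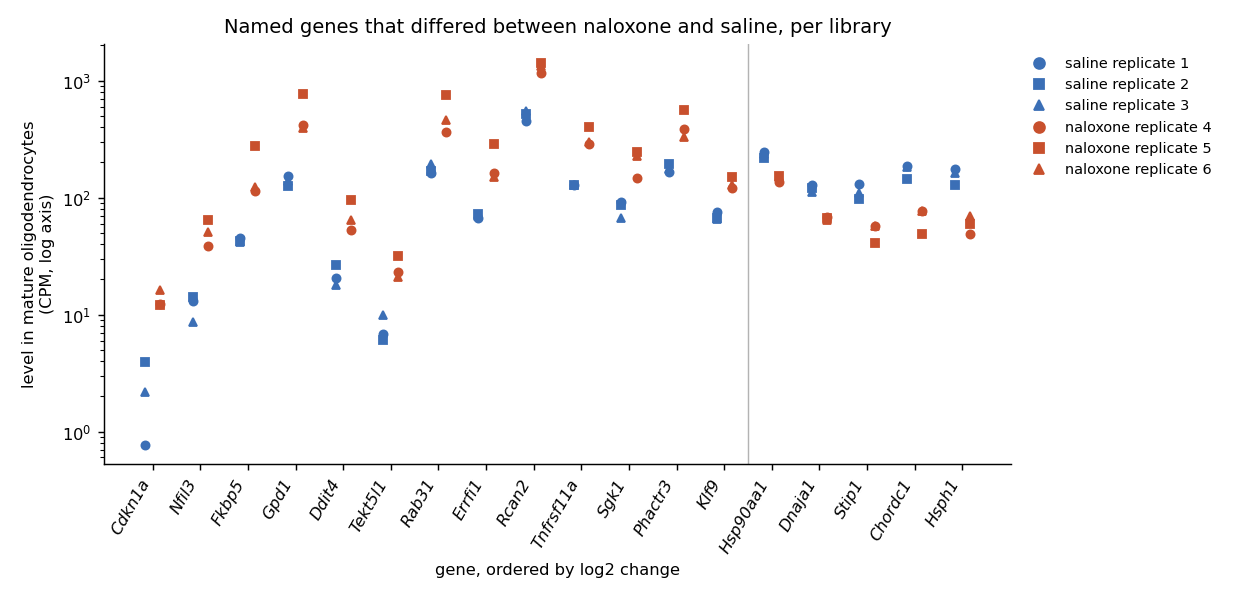
Level of the 18 named called genes in mature oligodendrocytes (CPM, log axis), with 1 point per library, saline in blue and naloxone in orange, ordered by log2 change. The 13 genes left of the grey line were higher in every naloxone library than in any saline library, the 5 genes right of it were lower in every naloxone library, and naloxone replicate 5 (orange squares) is the highest point for most of the higher genes.

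The 5 genes that fell were all on the heat shock chaperone list. Of its 30 tested genes, 5 fell and none rose, 26 had a log2 change below 0, 19 had naloxone libraries that all lay below the saline libraries, and the median log2 change was -0.50. Over all genes tested 0.042% fell, 6117 of 11910 had a log2 change below 0, and 7.59% had naloxone libraries that all lay below the saline libraries. This list too was chosen with results of these libraries known. Hsph1, the HSP110 protein that exchanges nucleotide on HSP70, stood at 176, 128 and 163 CPM after saline and at 49.3, 59.2 and 69.7 CPM after naloxone (log2 change -1.40, SE 0.17, edgeR adjusted p = 0.0219). Chordc1, a cochaperone of HSP90, stood at 186, 145 and 183 CPM and then at 77.4, 49.0 and 77.2 CPM (log2 change -1.33, SE 0.19, adjusted p = 0.0419). In both genes every naloxone library lay below every saline library.

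Stip1, the adaptor that hands client proteins from HSP70 to HSP90, fell from 112 ± 16.9 to 51.5 ± 9.48 CPM (SD, n = 3 libraries each; log2 change -1.11, SE 0.18, edgeR adjusted p = 0.0474). Dnaja1, an HSP40 cochaperone of HSP70, stood at 128, 119.9 and 112 CPM after saline and at 67.9, 66.4 and 64.9 CPM after naloxone (log2 change -0.86, SE 0.10, adjusted p = 0.0219). Hsp90aa1, the stress-inducible HSP90, stood at 234 ± 12.5 CPM after saline and 147 ± 10.3 CPM after naloxone (log2 change -0.68, SE 0.10, adjusted p = 0.0422). Among the naloxone libraries, replicate 5 was the lowest for Chordc1 and Stip1 and the highest for Hsp90aa1. The adjusted p of the 5 genes was between 0.145 and 0.293 without saline replicate 1, between 0.0801 and 0.164 without saline replicate 3 and between 0.0658 and 0.180 without naloxone replicate 4. Of the 5, only Hsph1 kept its call without naloxone replicate 6.

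Among list genes that missed the threshold, Cacybp stood at 44.1 ± 1.66 and 24.9 ± 3.02 CPM (log2 change -0.84, adjusted p = 0.0534), Ahsa2, an activator of the HSP90 ATPase, at 88.7 ± 13.3 and 47.7 ± 7.44 CPM (-0.90, adjusted p = 0.101) and Hspa8, the constitutive HSP70, at 97.6 ± 2.13 and 65.6 ± 7.23 CPM (-0.58, adjusted p = 0.135; edgeR, n = 3 libraries per group). These 3 and Ahsa1 were lower in the fit without the clusters led by genes of other cell types, which made 9 of 30 (0.197% of all genes tested there). Hspa5 and Hsp90b1, chaperones of the endoplasmic reticulum, were among the 4 list genes with a log2 change above 0. Hspa5 stood at 229 ± 30.4 and 248 ± 38.9 CPM (log2 change 0.10, 95% interval -0.19 to 0.38) and Hsp90b1 at 258 ± 29.1 and 281 ± 26.6 CPM (0.11, -0.13 to 0.35). Hsf1, the heat shock factor itself, stood in its own RNA at 31.9 ± 3.97 and 30.4 ± 3.08 CPM.

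Heat shock factor binds arrays of inverted short units, so the promoters of the genes that fell were searched for the heat shock element, 3 alternating units GAA, TTC and GAA each separated by any 2 bases, on either strand, within 250 bases before to 50 bases after each start (RefSeq sequences on the build GRCr8). It was found in 3 of the 4 genes that have an entry, Hsph1, Chordc1 and Dnaja1, and not in the window of Stip1. In all 33469 promoter windows of that length 0.798% held it, and 0 of 19 genes that rose did. The genes that fell are all on the heat shock chaperone list, whose other genes were not counted separately. Whether the element goes with the fall rather than with the list was therefore not tested. The stretches with the matches are shown in gene direction because they hold the matched letters, with matched bases in capitals (in Chordc1 3 overlapping matches form 1 run). The Hsph1 stretch ends at the base before the start of transcription (chr12:10427288-10427367, plus strand), and those of Chordc1 (chr8:23650828-23650857, plus strand) and Dnaja1 (chr5:60638408-60638437, plus strand) lie just after it.
Hsph1: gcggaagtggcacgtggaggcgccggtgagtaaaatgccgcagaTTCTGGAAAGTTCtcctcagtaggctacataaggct
Chordc1: ccgGAACGTTCGGGAAGATTCCTGAAgcag
Dnaja1: gggcgGAACTTTCCAGAAcgctcggtgggt
The glucocorticoid response element, GNACA and TGTNC separated by any 3 bases, was found in 0 of 19 genes that rose and 0 of 4 that fell, beside 0.439% of all windows. A match is a match of letters in these windows, and no binding was measured here.

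Genes of myelin, its lipids and the oligodendrocyte lineage did not pass the test in either direction. Genes of the rule are left out of these counts and medians. Of the 16 other tested genes of myelin structure none was called (median log2 change -0.06), and the same held for 21 genes of myelin lipid synthesis (-0.10), 21 of cholesterol synthesis (-0.10), 17 lineage transcription factors (-0.08), 19 channels, junctions and transporters (0.02), 7 iron-handling genes (0.06) and 15 genes of newly formed or mature states (-0.04). Over all genes tested 0.252% were called, so a lack of calls in lists this short does not set them apart from other genes. Mobp stood at 1235 ± 65.0 CPM after saline and 1545 ± 123 CPM after naloxone (log2 change 0.31, 95% interval 0.04 to 0.58, edgeR adjusted p = 0.543; SD, n = 3 libraries per group).

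Among genes of the rule, given as values only, Mog, a glycoprotein of the outer myelin surface, stood at 1279, 1444 and 1665 CPM after saline and at 1883, 2555 and 1777 CPM after naloxone. Ermn, an actin-binding myelin protein, lay the other way, at 442, 386 and 433 CPM and then 326, 236 and 317 CPM. Of the 16 other genes of myelin structure the naloxone libraries of 3 all lay above and those of 2 all lay below the saline libraries, and of the 21 genes of myelin lipid synthesis 4 and 1, beside 8.25% and 7.59% of all genes tested. The following list members were chosen for mention after their values had been seen. Qdpr, dihydropteridine reductase, stood at 178 ± 29.7 and 104 ± 18.9 CPM (-0.78, adjusted p = 0.164), and Aspa, the enzyme that frees acetate from N-acetylaspartate for lipid synthesis, at 500.2, 465 and 536 CPM and then 895, 1477 and 785 CPM (1.05, adjusted p = 0.107). In the fit without the clusters led by genes of other cell types Qdpr was lower (adjusted p = 0.0107) and Aspa higher (adjusted p = 0.0205). Rtn4, the myelin-associated inhibitor Nogo, stood at 1256 ± 185 and 889 ± 125 CPM (-0.51, adjusted p = 0.430), and Tf, transferrin, at 1510.4 ± 233 and 1078 ± 178 CPM (-0.50, adjusted p = 0.512).

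Of 22 growth receptors and signalling genes Sgk1 was the 1 call, and of 8 tested genes linked to stressed oligodendrocytes Cdkn1a was the 1 call. Both genes are also on the glucocorticoid target list and are the calls already counted there. Over all genes tested 0.21% were higher and 0.252% were called in either direction. Ddit3, a factor of the unfolded protein response on the list of stressed oligodendrocytes, stood at 19.8 ± 0.474 and 15.7 ± 2.10 CPM (log2 change -0.35, adjusted p = 0.609). Only 4 of 22 immediate early genes passed the filter on low counts, with no call. Jun, a subunit of the AP-1 factor, stood at 28.4 ± 3.13 and 27.7 ± 3.65 CPM. None of 15 clock genes was called (median -0.11).

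**Figure D3:**
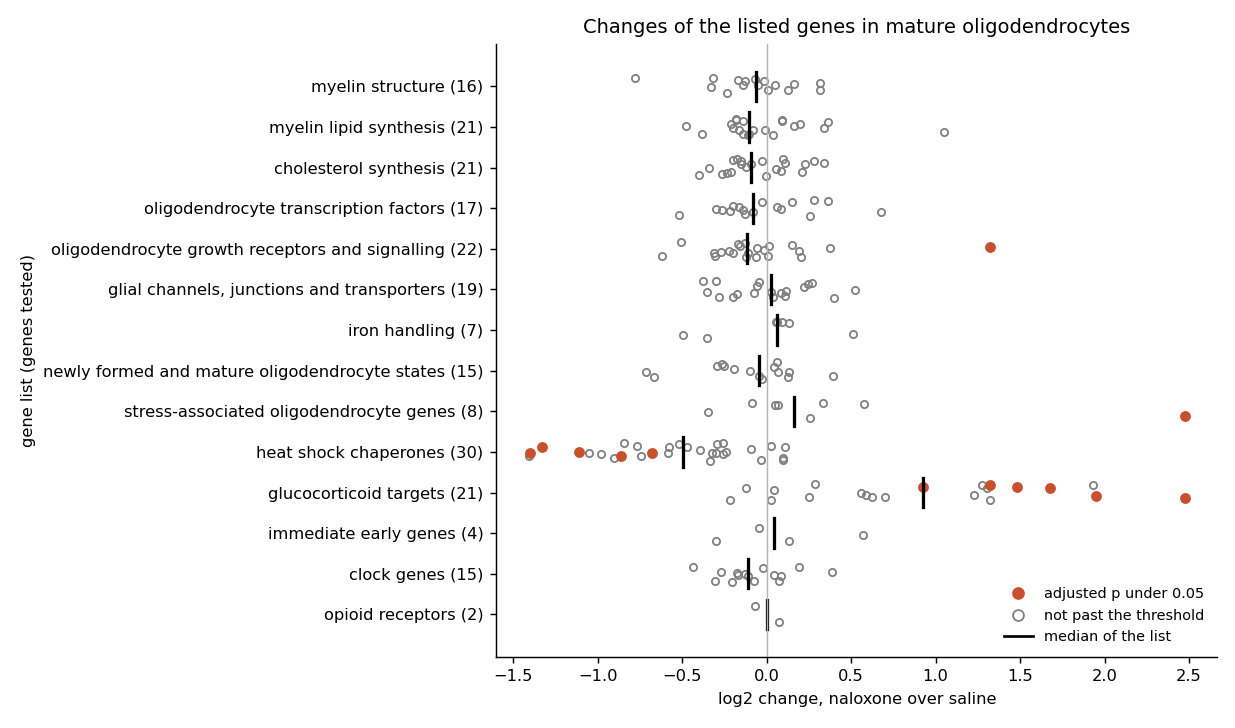
Log2 change, naloxone over saline, of every tested gene of the 14 lists in mature oligodendrocytes, genes of the rule left out, with filled points for genes with an adjusted p under 0.05 and a black bar at each list's median. The glucocorticoid target list has its median at 0.93 and the heat shock list at -0.50, while the medians of the myelin, lipid and cholesterol lists lie between -0.06 and -0.10.

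The opioid receptor genes, whose products naloxone blocks, were low in these nuclei, and neither of the 2 tested, Oprm1 and Oprk1, was called. Oprm1, the mu receptor, stood at 13.8, 17.4 and 9.68 CPM after saline and at 11.7, 16.7 and 11.0 CPM after naloxone (log2 change -0.07, 95% interval -0.64 to 0.50). The highest values were in saline replicate 2 and naloxone replicate 5, the libraries with the most neuron marker UMIs in these nuclei. Without the clusters led by genes of other cell types the log2 change of Oprm1 was -0.14 (edgeR adjusted p = 0.885). Over all libraries Oprm1 was at 57.9 ± 7.06 CPM in spiny neurons, 4.84 to 15.2 CPM in astrocytes and 8.23 ± 5.58 CPM in precursors. Mature oligodendrocytes (13.4 ± 3.16 CPM) overlapped astrocytes and precursors in their range over libraries. Within libraries they were above precursors in all but naloxone replicate 5, and above astrocytes in all but saline replicate 3. These differences in level were not tested. Oprk1, the kappa receptor, stood at 5.02 ± 1.82 CPM, Oprd1, the delta receptor, at 2.21 ± 1.18 CPM and Oprl1, the nociceptin receptor, at 1.32 ± 0.677 CPM (SD, n = 6 libraries). The last 2 were below the filter on low counts and were not tested. Oprd1 stood at 2.29, 4.49 and 1.97 CPM after saline and at 1.30, 1.90 and 1.34 CPM after naloxone, 2 groups that did not overlap and that rest on few UMIs.

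The naloxone change was set beside that of the other 3 classes, each fitted by itself. The classes come from the same 6 libraries and so share their saline samples. Precursors had 15 called genes of 8955 (0.168%; 0.123% higher and 0.0447% lower), astrocytes 21 of 10849 (0.194%; 0.166% and 0.0277%) and spiny neurons 6 of 15281 (0.0393%; 0.0131% and 0.0262%). The log2 change of Fkbp5 was 1.95 (SE 0.29) in mature oligodendrocytes, 2.03 (SE 0.29) in precursors, 2.94 (SE 0.37) in astrocytes and 0.36 (SE 0.13) in spiny neurons, with edgeR adjusted p of 0.0420, 0.00376, 0.0234 and 0.241. That of Hsph1 was -1.40 in mature oligodendrocytes, -1.09 in precursors, -1.05 in astrocytes and -0.67 in spiny neurons (adjusted p = 0.0219, 0.0126, 0.0357 and 0.0506). Of the glucocorticoid targets tested, 4 of 10 were higher in precursors, 4 of 21 in astrocytes and 0 of 24 in spiny neurons, with medians of 0.62, 0.66 and 0.09. Of the heat shock list 3 of 25 were lower in precursors, 3 of 27 in astrocytes and 0 of 31 in spiny neurons, with medians of -0.23, -0.29 and -0.27.

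**Figure D4:**
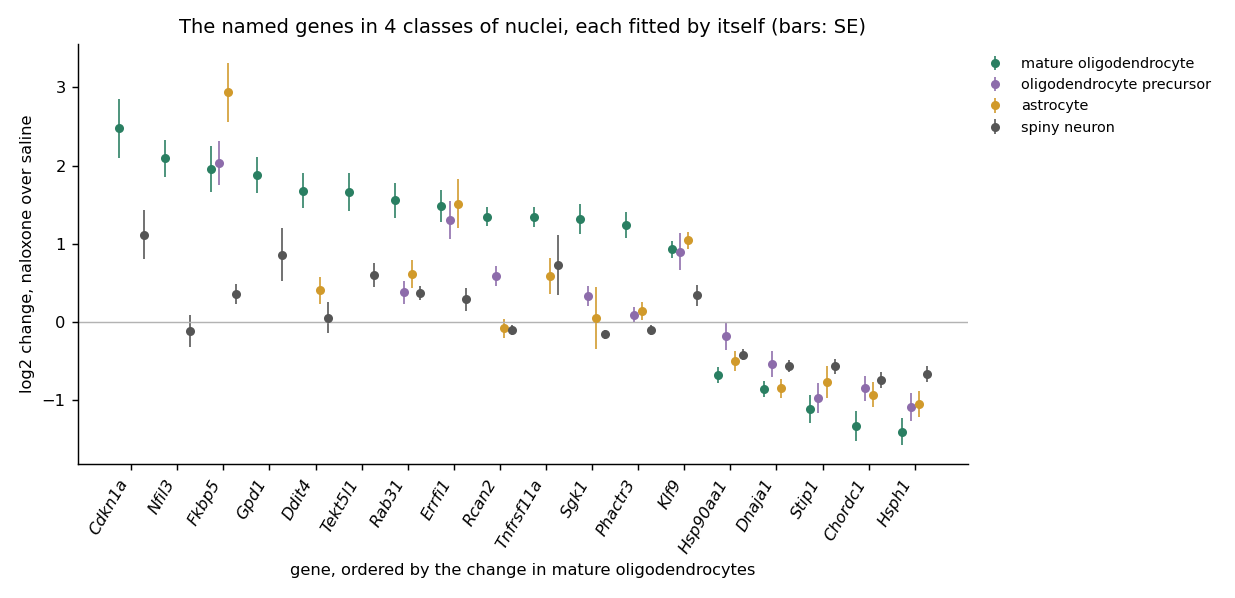
Log2 change (naloxone over saline, bars are SE) of the 18 named called genes in mature oligodendrocytes, oligodendrocyte precursors, astrocytes and spiny neurons, each class fitted by itself on the same 6 libraries, with a point left out where the gene was not tested in that class. The points of Rcan2, Sgk1 and Phactr3 lie between -0.16 and 0.59 in the other 3 classes and at 1.24 to 1.35 in mature oligodendrocytes. Of their differences from precursors and astrocytes, only that of Rcan2 from astrocytes passed the class by treatment test.

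A class by treatment term, with the library as a block, gave the test of whether a change differed from that of another class. Against spiny neurons 13 of 15338 genes differed (0.0848%), 11 with a larger (0.0717%) and 2 with a smaller log2 change (0.013%) in mature oligodendrocytes. Nfil3 differed by 2.18 (SE 0.27, edgeR adjusted p = 0.0239) and stood at 3.36 ± 0.890 and 3.12 ± 0.294 CPM in spiny neurons after saline and naloxone. Ddit4 differed by 1.65 (SE 0.15, adjusted p = 0.00490), Fkbp5 by 1.52 (SE 0.18, adjusted p = 0.0235), Sgk1 by 1.45 (SE 0.19, adjusted p = 0.0244), Rcan2 by 1.45 (SE 0.13, adjusted p = 0.00490) and Errfi1 by 1.17 (SE 0.11, adjusted p = 0.00500). Sgk1 stood in spiny neurons at 193, 186 and 184 CPM after saline and 167, 176 and 169 CPM after naloxone, every naloxone library below every saline library, without passing the test (log2 change -0.16, adjusted p = 0.222), while the same libraries' oligodendrocytes went from a mean of 81.8 to 206 CPM. The genes with the smaller change were Rnf152, a ubiquitin ligase of the lysosome (difference -1.12, SE 0.12, adjusted p = 0.00939; 63.1 ± 8.72 and 33.6 ± 11.4 CPM in mature oligodendrocytes), and Xpo1, the nuclear export receptor (-0.78, SE 0.11, adjusted p = 0.0483). No call against spiny neurons held without saline replicate 1. Ddit4, Rcan2 and Errfi1 kept theirs in the other 5 fits that left out 1 library. Fkbp5 also lost its call without naloxone replicate 4 or 6, Sgk1 without saline replicate 3 or naloxone replicate 5 or 6, and Nfil3 in every such fit but the one without saline replicate 2 (adjusted p of these up to 0.236).

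Against the other glia few differences passed, and the test had less power there. With a log2 change of 1 simulated in 200 genes, it recovered 27.5% of them against precursors, 37.5% against astrocytes and 55.5% against spiny neurons. The counts of genes are therefore not comparable between classes. Rcan2 was the 1 gene of 12564 (0.00796%) that differed from astrocytes, by 1.42 (SE 0.16, edgeR adjusted p = 0.0263). Astrocytes held 502, 653 and 516 CPM of Rcan2 after saline and 483, 500.5 and 562 CPM after naloxone, 2 groups that overlapped. Rab31 and Grm8 were the 2 genes of 11947 (0.0167%) that differed from precursors, 1 in each direction (0.00837%). Rab31 differed by 1.16 (SE 0.16, adjusted p = 0.0202), and precursors held 299 ± 15.7 and 392 ± 106 CPM of it. Grm8, a metabotropic glutamate receptor, differed by -2.51 (SE 0.31, adjusted p = 0.0159), being 20.9, 18.2 and 7.86 CPM in precursors after saline and 67.8, 133 and 27.3 CPM after naloxone, with 91.2 ± 55.7 and 75.3 ± 37.1 CPM in mature oligodendrocytes. In mature oligodendrocytes its highest values, 155 and 109 CPM, were in saline replicate 2 and naloxone replicate 5. These libraries held the most neuron marker UMIs in mature oligodendrocyte nuclei, and a part of neuronal RNA was not tested. For Fkbp5 the difference from precursors and astrocytes did not pass (adjusted p = 1.00 and 0.386), and neither did that of Hsph1 from any class (adjusted p 0.312 to 0.979). Rcan2 lost its call without saline replicate 1, naloxone replicate 4, 5 or 6 (adjusted p up to 0.467), as did Rab31 (up to 0.401), and Grm8 lost its call without saline replicate 2 or naloxone replicate 5 (up to 0.0551).

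Each library pools both sexes, so nuclei were also split by Xist and 4 Y-linked genes, which left between 32.1% and 51.0% of the mature oligodendrocyte nuclei of a library unassigned. Between male and female nuclei of the same libraries 8 of 10037 genes differed (0.0797%; 0.0498% higher and 0.0299% lower in male nuclei), 5 of them the genes used for the split. Apart from those, Kdm6a, an X-linked histone demethylase, was lower in male nuclei, at 325 ± 30.5 CPM against 468 ± 28.4 CPM in female nuclei (SD, n = 6 libraries; log2 difference -0.53, SE 0.08, edgeR adjusted p = 0.0131). It lost the call without saline replicate 2 or 3 (adjusted p up to 0.126). The others were LOC103694537, which lost its call without saline replicate 2 (adjusted p = 0.0574), and ENSRNOG00000065796. No gene had a naloxone change that differed between the sexes (0 of 10037; 471 at an unadjusted p under 0.05; 1 by DESeq2), and without naloxone replicate 6 there were 10 such genes. Fkbp5 stood at 27.7 ± 5.46 and 132 ± 75.7 CPM in female nuclei and at 54.9 ± 2.63 and 167 ± 129 CPM in male nuclei after saline and naloxone. Among the named called genes, the groups overlapped only in male nuclei for Fkbp5, Sgk1, Ddit4, Errfi1, Klf9, Rcan2 and Rab31. They overlapped only in female nuclei for Cdkn1a, Tekt5l1 and Hsp90aa1, and in neither sex for the others. After saline, Sgk1 stood at 48.0 ± 5.30 CPM in female and 119 ± 27.2 CPM in male nuclei. Of assigned nuclei, 63.4 ± 6.95% were female after saline and 55.1 ± 8.79% after naloxone (exact permutation test, p = 0.2). Fitted by themselves, neither sex had a called gene. On simulated data the sex by treatment term recovered 27.5% of genes changed by a log2 of 1. A lack of calls therefore does not show that the sexes responded alike.

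Within the class, clustering on the 2000 most variable genes gave 8 clusters. Genes of the rule, mitochondrial genes, Xist and the Y-linked genes were left out. The 2 largest, of 4085 and 2460 nuclei, were led by Qdpr, Cobl and Pstpip2 and by Dlc1, Rasgef1c, Rasgrp3 and Atp10a. A cluster of 2316 nuclei was led by Fkbp5, Gpd1, Errfi1 and Zbtb16, genes whose naloxone libraries all lay above the saline libraries, and it held 3.35%, 5.77% and 8.27% of the nuclei of the saline libraries and 30.8%, 56.1% and 30.6% of those of the naloxone libraries. Since its defining genes are the responding genes, this share repeats their change and is no result by itself. A cluster of 248 nuclei was newly formed oligodendrocyte-like, with 880.0 CPM of Enpp6, 1557 CPM of the adhesion protein Tns3 and 576 CPM of the calcium channel Itpr2, against 27.7, 342 and 40.4 CPM in the Fkbp5-led cluster. It took 3.02%, 2.49% and 2.33% of the saline and 1.99%, 2.29% and 2.27% of the naloxone libraries' nuclei. Its leading genes were Tmem108, Frmd4a and Rras2. Of its nuclei 10.5% held UMIs of both Xist and Y-linked genes and 5.24% were called doublets, against 1.81% and 0% in the largest cluster. Its microglia and precursor markers summed to 171 and 1337 CPM, against 19.2 and 173 CPM in the largest cluster. A part of mixed nuclei in it was not tested. It stayed in the fit without the clusters led by genes of other cell types.

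The clustering was repeated without 1021 genes, those with an unadjusted p under 0.05 and the listed responding genes, and gave 9 clusters. Since every gene that differed at that level was left out, shares that overlap between groups follow in part from how these clusters were made and are given as a description. The largest, led by Svep1, Srgap1 and Cobl, held 44.3%, 38.0% and 53.1% of the saline and 44.6%, 39.2% and 43.0% of the naloxone libraries' nuclei. The next, led by Slc5a11, Rasgrp3 and Atp10a, held 37.4%, 37.3% and 30.5% and then 36.9%, 40.7% and 36.4%. In the first of these Fkbp5 stood at 51.2, 43.7 and 49.2 CPM after saline and 119, 329 and 134 CPM after naloxone, and in the second at 47.0, 48.3 and 38.7 CPM and then 134, 349 and 138 CPM. Hsph1 stood at 179, 132 and 176 CPM and then 48.8, 48.3 and 74.1 CPM in the first, and at 207, 153 and 150.0 CPM and then 51.8, 58.4 and 69.8 CPM in the second. In each of the clusters numbered 0 to 6 every naloxone library was above every saline library for Fkbp5 and below it for Hsph1, including the Tmem108-led one of 183 nuclei, where Fkbp5 rested on 1 to 11 UMIs per library. Of these 7, cluster 4 (456 nuclei, led by Galntl6, Nrg1 and Kcnip4) held 5846 CPM of neuron markers against 2386 CPM of the rule's own, with 40.4% of its nuclei called doublets. Cluster 6 (173 nuclei, led by the glutamate transporter Slc1a2 and by Gpc5) held 13678 CPM of astrocyte markers against 4751 CPM, with 37.0% called doublets, so the values of both go against the name of mature oligodendrocytes. The 2 clusters left held 8 and 62 nuclei. The cluster of 62, led by Adamtsl1, Epha3 and Zmat4, held 5142 CPM of neuron markers against 4077 CPM of the rule's own. Of its nuclei 12.9% were called doublets and 14.5% held UMIs of both sexes, so its values too go against the name of mature oligodendrocytes. It took 0.163%, 0.489% and 0.195% of the saline and 0.692%, 1.31% and 0.733% of the naloxone libraries' nuclei, 2 groups that did not overlap.

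**Figure D5:**
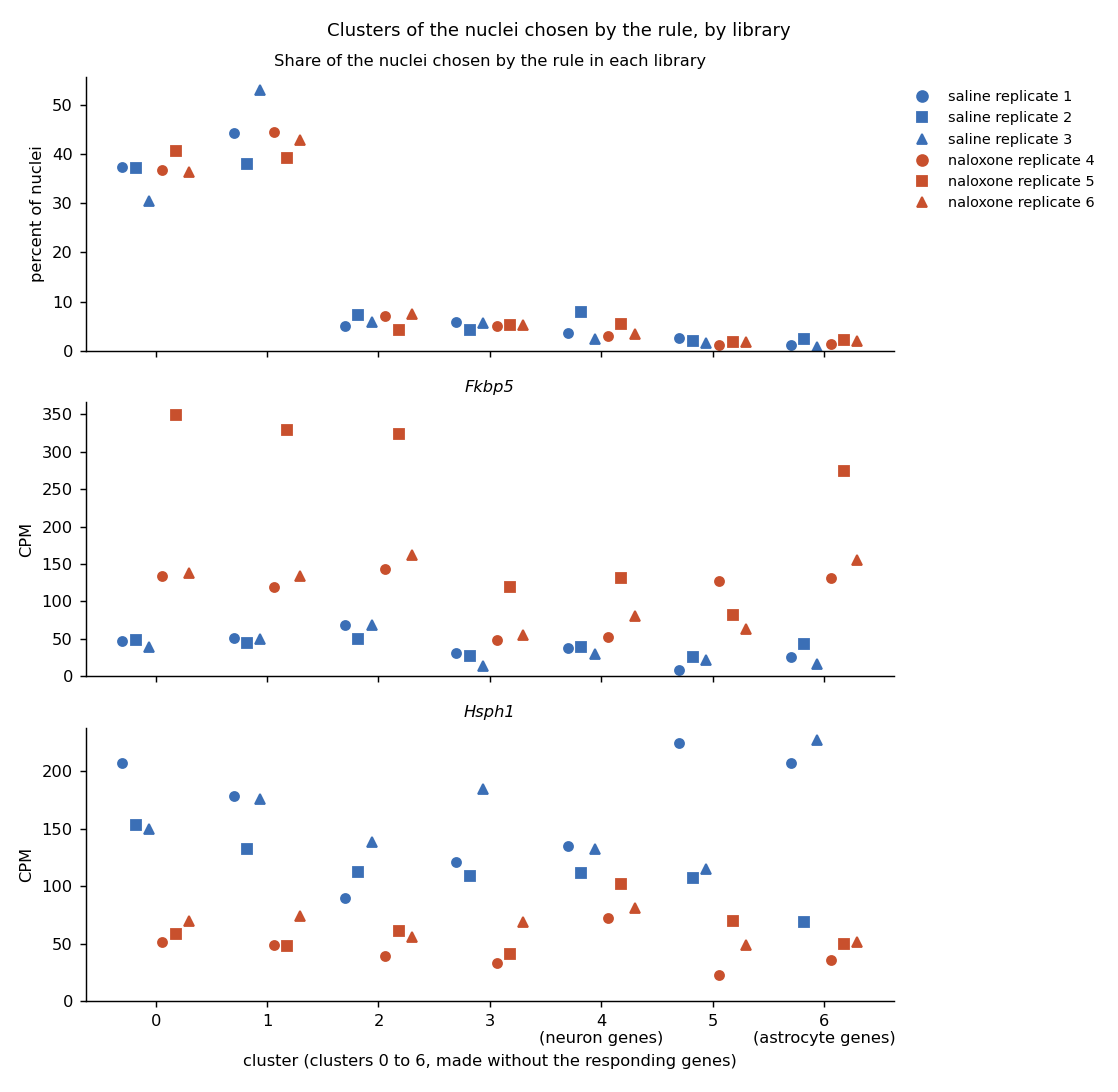
Clusters 0 to 6 of the nuclei chosen by the rule, made without the responding genes, where clusters 4 and 6 are led by genes of neurons and astrocytes, with the share of each library's nuclei (percent, top) and the level of Fkbp5 and Hsph1 (CPM, middle and bottom), 1 point per library, saline in blue and naloxone in orange. The shares of the 2 large clusters overlap between groups, while the orange points lie above the blue ones for Fkbp5 and below them for Hsph1 in each of the 7 clusters.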

How the data were processed

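Nuclei of 6 libraries were grouped by the treatment in the labels. The deposited values are raw UMI counts per gene and barcode, made with Cell Ranger 9.0.1 on the build mRatBN7.2 per the submitters' processing notes. Counts were summed per library over the class and tested with edgeR 4.0.16 (TMM factors, its default filter on low counts, quasi-likelihood F-test, Benjamini-Hochberg adjustment over all genes tested, threshold 0.05); log2 changes are naloxone over saline, and SEs come from the F statistic. Classes and sexes were compared with the library as a block. Called doublets (Scrublet scores, 0.4% per 1000 nuclei) stayed in, and their removal was an alternative. Clusters (scanpy 1.11.5, Leiden, resolution 0.4) are descriptions. On simulated data the fit of these nuclei (11910 genes, 200 changed by a log2 of 1) recovered 60% of the changed genes with 9 false calls, and made 0 calls with none changed.

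The members and gene lists were chosen with earlier results of these data known. Named are the 12 called genes with the largest change in each direction (mean of at least 10 CPM in the higher group, groups not overlapping), called list genes, the opioid receptors and the rule's markers, and in the other fits the 5 largest in each direction. Genes given as examples of a list were chosen after their values had been seen. The alternatives were each library left out in turn, DESeq2 1.42.0, testing without the filter on low counts, RLE factors, nuclei with 1000 genes or more, a marker sum of at least 3 with at least 5 Mbp UMIs, no Gad1 or Gad2 UMI, doublets removed, and either sex alone. Intervals are 95%, use the t distribution with the fit's degrees of freedom, and cover the spread between libraries. Dusp1, Junb, St13, Jph4, Arntl, Ftl1, Mt2, Cyp51 and Mt1 were not analysed here.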

Additional observations from a re-analysis of the deposited data

Results flagged for a closer look

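Against spiny neurons the naloxone change differed, by the class by treatment term, in 13 genes, and all are given as the log2 change in mature oligodendrocytes minus that in the other class. They were Nfil3 (2.18), Ddit4 (1.65), Fkbp5 (1.52), Sgk1 (1.45), Rcan2 (1.45), Phactr3 (1.31), Errfi1 (1.17), Fam222a (1.03), Azin1 (0.97), Gnptab (0.92), Adora1 (0.90), Xpo1 (-0.78) and Rnf152 (-1.12). Adora1, the A1 adenosine receptor, stood at 55.1 ± 7.35 and 85.4 ± 11.6 CPM in mature oligodendrocytes and at 13.9 ± 0.529 and 11.5 ± 1.77 CPM in spiny neurons (SD, n = 3 libraries each). Fam222a, Adora1, Rnf152 and Xpo1 did not pass the test in mature oligodendrocytes alone (edgeR adjusted p = 0.0654, 0.153, 0.297 and 0.135).

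Against astrocytes 1 gene differed, Rcan2 (1.42). Against oligodendrocyte precursors 2 genes differed, Rab31 (1.16) and Grm8 (-2.51). In precursors the 3 naloxone libraries of Grm8 spread from 27.3 to 133 CPM.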

How the results depend on the processing

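No paired analysis was possible because the saline libraries carry the numbers 1 to 3 and the naloxone libraries 4 to 6, so the groups share no number. The 30 calls (25 higher, 5 lower) became 85 with DESeq2 (65 and 20), 111 without the filter on low counts, where more genes were tested (82 and 29), 49 with stricter markers (40 and 9), 3 with at least 1000 genes per nucleus (3 and 0), 0 in female or male nuclei alone and 99 without the clusters led by genes of other cell types (77 and 22), an alternative chosen after seeing the data. Leaving out 1 library gave 0 to 18 calls (0 to 16 higher, 0 to 7 lower). The cause was not tested. No named gene changed direction where it was tested (all 18 in 14 alternatives, 16 in female and 17 in male nuclei). For the fits with 1 library left out this largely follows from groups that do not overlap. All 18 kept their call with DESeq2, RLE factors, stricter markers, no Gad1 or Gad2 UMI and doublets removed.

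Differences from precursors (2 genes) became 27 without the filter, 0 with at least 1000 genes and 1 to 2 with a library left out. Those from astrocytes (1 gene) became 4 with DESeq2, 56 without the filter, 0 with at least 1000 genes and 0 to 1 with a library left out. Those from spiny neurons (13 genes) became 42, 47, 5 and 0 to 31 under the same settings. Male against female gave 103 calls without the filter. The sex by treatment term gave 1 with DESeq2, 67 without the filter and 0 to 10 with a library left out. The difference in the share of nuclei was -0.499 percentage points with at least 1000 genes and -1.96 to 2.58 with a library left out. The median of the glucocorticoid targets lay between 0.64 and 1.33 and that of the heat shock list between -0.59 and -0.47 over all alternatives. Depth limits the low genes, since a library holds 2617180 to 5063800 UMIs of these nuclei, and Oprl1 stood at 0.382 CPM in saline replicate 1.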
